A study of Mus musculus with 12 samples.

Results

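The genes described here are 10 genes through which a cell of the mouse adrenal cortex takes up, carries and activates fatty acids. They are the uptake receptor Cd36, the transport proteins Slc27a1 and Slc27a4, the binding proteins Fabp3, Fabp4 and Fabp5, and the long-chain acyl-CoA synthetases Acsl1, Acsl3, Acsl5 and Acsl6. They were taken by gene symbol and not by their measured values, and each symbol matched 1 of the 49585 gene identifiers that were counted.

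Total RNA from the adrenal cortex of 12 separate mice was sequenced in 3 groups of 4. According to the methods, male wild-type C57BL/6J mice aged 6 weeks were kept on 1 of 2 diets over 20 weeks. The low-fat diet (LFD) drew 10% and the high-fat diet (HFD) 60% of its energy from fat. The icosapent ethyl group received the HFD throughout, and for the last 10 weeks it was supplemented with icosapent ethyl, the ethyl ester of the omega-3 fatty acid eicosapentaenoic acid. The methods name wild-type mice for this group but do not repeat their sex or starting age. The sample titles write ND for the LFD mice and Vasc for the icosapent ethyl mice. The labels give all 12 mice the genotype Fads2-/-, which differs from the wild-type animals in the methods; Fads2, the delta-6 desaturase gene, was counted in every mouse at 452 to 2182 CPM (reads per 1000000 assigned reads, after scaling of the libraries), and the label could not be checked further. Both readings give the 3 groups the same genotype. The mice of 1 group are biological replicates. The methods list the icosapent ethyl feeding under other experiments than the LFD and HFD feeding. Whether all 3 groups were fed and sequenced together is not given in the sources used here.

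Between 34785979 and 67295963 reads were assigned to genes per mouse. All 10 markers of steroid-producing cortical cells were detected, with a summed level from 45905 to 107522 CPM. It was 45905 to 76689 CPM in LFD, 60635 to 107522 CPM in HFD and 63375 to 99700 CPM in icosapent ethyl mice. In HFD versus LFD all 10 had positive log2 fold changes, with a median of 0.50 and none at an edgeR adjusted p below 0.05. The part of this difference in the results below was not tested. Markers of other cells were present too. The summed level of 10 markers of the chromaffin cells of the medulla lay between 3020 and 22062 CPM, that of 10 endothelial markers between 1063 and 1910 CPM, that of 10 macrophage markers between 512 and 1095 CPM, and that of 8 adipocyte markers between 190 and 418 CPM. In these bulk samples, fewer cells of a type and less RNA per cell cannot be told apart.

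Long-chain fatty acids enter a cell with the help of the receptor CD36 and of transport proteins of the SLC27 family, several of which are also acyl-CoA synthetases. Inside the cell they are carried by small cytosolic binding proteins, and acyl-CoA synthetases of the ACSL family join them to coenzyme A, which commits them to oxidation, storage or incorporation into phospholipids. Adrenocortical cells store cholesterol as fatty acid esters in lipid droplets and draw on these stores for steroid hormones. Many genes of fatty acid handling, among them Cd36, Acsl1, Fabp3 and Fabp4, are known targets of the peroxisome proliferator-activated receptors (PPARs) in other tissues.

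**Figure D1:**
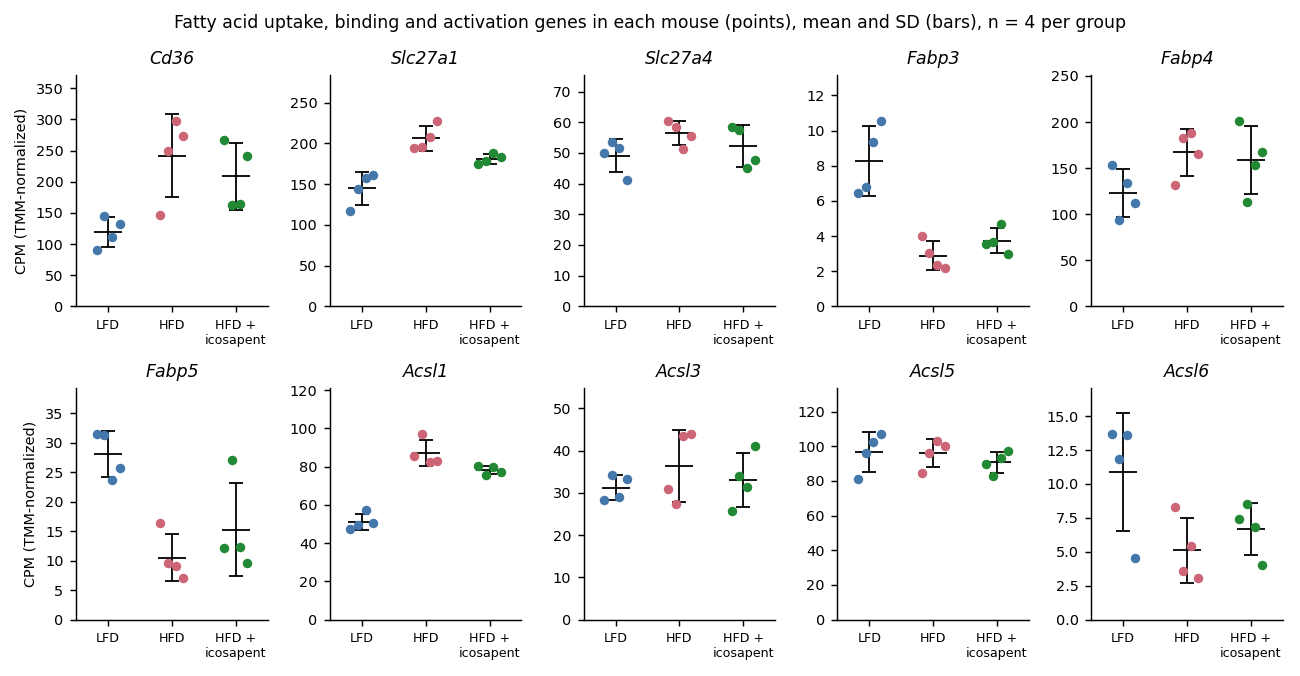
Level of each of the 10 genes in CPM (vertical axes, each from 0) in every mouse of the LFD, HFD and HFD with icosapent ethyl groups; points are mice, the wide bar is the mean and the whiskers are the SD (n = 4). Acsl1, Cd36 and Slc27a1 lay higher in all HFD mice than in all LFD mice, and Fabp3 and Fabp5 lay lower.

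The first comparison asked how the HFD changed these genes. Acsl1 rose 1.69-fold in HFD mice, while Fabp3 and Fabp5 fell to 0.349 and 0.372 of their LFD levels. Cd36 had 2.01 times its LFD level and Slc27a1 1.42 times, with HFD mice above LFD mice in each case, but neither passed the adjusted threshold of 0.05. Of the 10 genes, 3 passed the edgeR quasi-likelihood test after Benjamini-Hochberg adjustment over all 15909 genes tested, of which 1.45% passed. In the higher direction 1 of the 10 passed, where 0.974% of all genes did, and in the lower direction 2 passed, where 0.471% of all genes did. In 5 of the 10 genes the ranges of both diets were separate, as they were in 13.5% of all genes tested. Of these, 3 were higher under HFD and 2 were lower, where 7.71% of all genes were higher and 5.82% lower. The median log2 fold change of the 10 genes was 0.20, against -0.015 for all genes. All 10 genes passed the filter on low counts in every comparison.

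**Figure D2:**
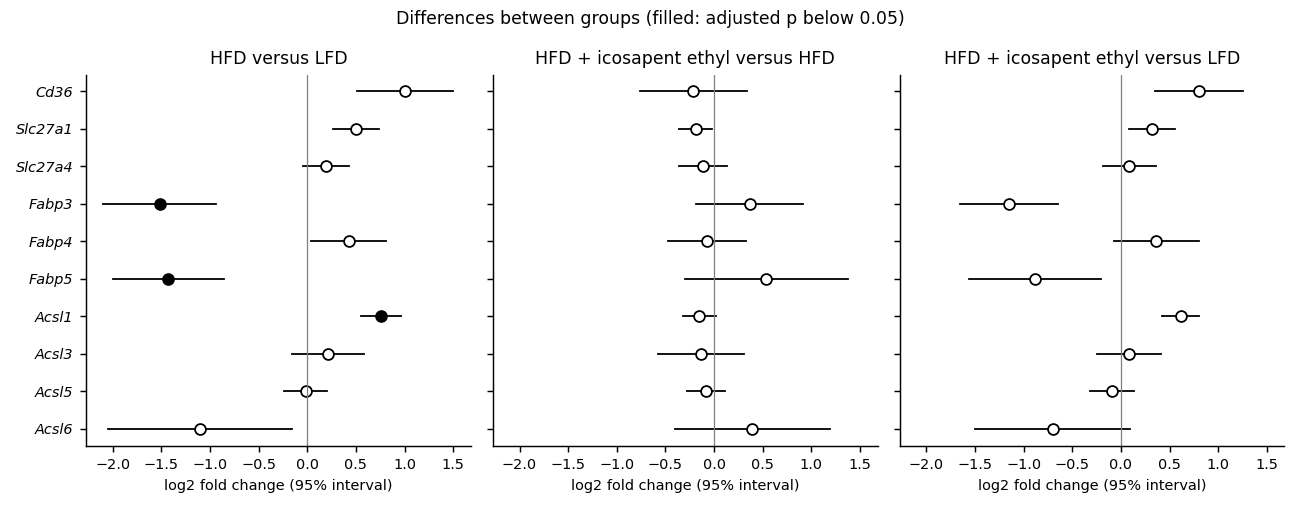
Log2 fold change of each gene with its 95% interval (horizontal axes) in the 3 comparisons between groups, from the edgeR fit; filled points have an adjusted p below 0.05. Only Acsl1, Fabp3 and Fabp5 in HFD versus LFD are filled, and the icosapent ethyl and HFD groups differed by at most 0.54 in either direction.

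Cd36, the membrane receptor that takes up long-chain fatty acids and lipoproteins (chromosome 5, 17781690 to 17888801, minus strand, GRCm38), stood at 90.7, 146, 112 and 132 CPM in LFD mice 2, 5, 6 and 7. In HFD mice 1 to 4 it stood at 147, 249, 298 and 273 CPM. The groups did not overlap, although HFD mouse 1 was only just above the highest LFD mouse. The means were 120 ± 24.0 and 242 ± 66.3 CPM (SD, n = 4), which is 1.0 on the log2 scale, with an SE of 0.22 (edgeR adjusted p = 0.0569). By the Wald test of DESeq2, another count model, the adjusted p was 0.00185. With the adipocyte markers as a covariate the log2 fold change was 1.18 (edgeR adjusted p = 0.0159), and with the endothelial markers 0.96 (adjusted p = 0.0256). In these fits 2557 and 1045 of all 15909 genes passed, and with the chromaffin markers no gene passed. With the macrophage or the lipid-associated macrophage markers the log2 fold change of Cd36 was 1.51 or 0.65, and no gene passed in either fit. The summed levels of these last lists did not overlap between the diets.

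Slc27a1, a transport protein with acyl-CoA synthetase activity (chromosome 8, 71568882 to 71587302, plus strand), had 117, 144, 158 and 161 CPM in LFD mice 2, 5, 6 and 7 and 195, 195, 208 and 228 CPM in HFD mice 1 to 4. Every HFD mouse was above every LFD mouse, by 0.50 on the log2 scale (SE 0.10, edgeR adjusted p = 0.0544, DESeq2 adjusted p = 0.00459). As deviations from the group means, Slc27a1 had r = 0.74 and Cd36 r = 0.69 with the cortical cell markers. Among the genes described here this r ran from -0.77 for Fabp5 to 0.92 for Acsl5. No fit used the cortical cell markers as a covariate, and their part was not tested. Slc27a4, a second transport protein of this family, stood at 49.1 ± 5.45 CPM under LFD and 56.4 ± 4.01 CPM under HFD (SD, n = 4), and the groups overlapped (log2 fold change 0.19, 95% interval -0.049 to 0.43, edgeR adjusted p = 0.295). Of the 8 fits that each left out 1 mouse, Cd36 and Slc27a1 passed the edgeR threshold in 1, without HFD mouse 1, with adjusted p of 0.0150 and 0.0403. In the other fits their adjusted p reached 0.165 and 0.149.

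The binding proteins moved in different directions. Their coding sequences are shown because the 3 genes are relatives with unlike values in the same libraries, and reads that fit more than 1 of them would blur that difference. They were read from the GRCm38 reference with its GENCODE M21 gene models, 5′ to 3′ on the coding strand, and their first 300 bases are printed here. Capitals mark the bases that are identical in all 3 aligned genes.
Fabp3: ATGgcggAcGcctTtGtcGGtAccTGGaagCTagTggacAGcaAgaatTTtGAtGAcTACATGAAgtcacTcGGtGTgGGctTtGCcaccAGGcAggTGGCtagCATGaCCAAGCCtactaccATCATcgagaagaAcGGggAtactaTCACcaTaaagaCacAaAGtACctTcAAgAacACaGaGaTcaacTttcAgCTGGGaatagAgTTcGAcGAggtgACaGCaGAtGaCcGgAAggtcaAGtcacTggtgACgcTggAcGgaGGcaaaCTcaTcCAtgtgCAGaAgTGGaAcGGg
Fabp4: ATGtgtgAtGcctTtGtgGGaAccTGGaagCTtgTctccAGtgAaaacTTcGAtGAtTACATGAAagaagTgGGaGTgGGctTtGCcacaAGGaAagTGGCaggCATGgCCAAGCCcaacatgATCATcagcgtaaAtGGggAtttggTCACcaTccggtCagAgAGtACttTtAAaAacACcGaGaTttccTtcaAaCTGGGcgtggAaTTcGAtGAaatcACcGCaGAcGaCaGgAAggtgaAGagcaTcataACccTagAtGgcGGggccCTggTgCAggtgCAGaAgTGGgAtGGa
Fabp5: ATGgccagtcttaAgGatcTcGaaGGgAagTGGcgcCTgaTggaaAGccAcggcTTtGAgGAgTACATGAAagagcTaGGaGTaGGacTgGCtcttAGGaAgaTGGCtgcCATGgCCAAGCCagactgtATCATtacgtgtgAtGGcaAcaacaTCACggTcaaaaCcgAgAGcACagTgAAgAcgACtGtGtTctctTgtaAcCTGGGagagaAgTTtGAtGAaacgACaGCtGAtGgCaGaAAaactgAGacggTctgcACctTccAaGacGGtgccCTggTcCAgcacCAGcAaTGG
Over the whole aligned coding sequences, Fabp3 and Fabp4 were 63.9% identical, Fabp4 and Fabp5 60.9%, and Fabp3 and Fabp5 56%. The longest stretch that any pair shared was 14 bases, well under the read length of 75 bases. Fabp3 lies on chromosome 4 (130308595 to 130315463, plus strand). Fabp4 (10204088 to 10208576, minus strand) and Fabp5 (10012548 to 10016607, plus strand) lie near each other on chromosome 3. Of the 75-base words of the Fabp3 transcript, 24.3% also occur in the pseudogene Fabp3-ps1, which itself had 0 to 7 counts per mouse. Of those of Fabp5, 3.03% occur in Gm6166 or Gm14328, which had 0 to 6 and 0 to 2 counts.

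Fabp3, the binding protein best known from heart and muscle, stood at 6.43, 6.77, 9.37 and 10.6 CPM in LFD mice 2, 5, 6 and 7. In HFD mice 1 to 4 it stood at 4.02, 3.02, 2.34 and 2.19 CPM, which rest on 189, 156, 96 and 97 reads. All HFD mice were below all LFD mice, with a log2 fold change of -1.52 (SE 0.26, edgeR adjusted p = 0.0398). The summed level of 5 skeletal and heart muscle markers was 6.18 to 7.42 CPM under HFD and 9.09 to 16.2 CPM under LFD. Of these markers, 4 stayed under 1 CPM in every mouse. As deviations from the group means, Fabp3 had r = 0.10 with this list, and the part of muscle was not tested.

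Fabp5, the epidermal binding protein that macrophages also express, had 31.4, 31.4, 23.8 and 25.7 CPM in the LFD mice and 16.3, 9.54, 9.08 and 7.06 CPM in the HFD mice, in the same order. Again the groups did not overlap, and HFD mouse 1 was the highest of its group for both Fabp3 and Fabp5. The log2 fold change of Fabp5 was -1.43 (SE 0.25, edgeR adjusted p = 0.0408). The summed level of 8 markers of lipid-associated macrophages (Gpnmb, Trem2, Cd5l, Mmp12, Spp1, Atp6v0d2, Lpl and Cd9) was also lower under HFD, at 173 to 300 CPM against 484 to 540 CPM under LFD. All 8 had negative fold changes, and Cd5l (-3.80) and Mmp12 (-1.96) passed the test. With the mean log2 CPM of these markers as a covariate, the log2 fold change was -0.42 for Fabp5 and -0.95 for Fabp3, and no gene passed. This setting was chosen after the data were seen. As the diets did not overlap in the summed level, the fit could hardly separate these markers from the diet. Genes with an unadjusted edgeR p under 0.05 went from 3949 without the covariate to 118 with it. Of 10 general macrophage markers, 8 had negative and 2 positive fold changes, from -1.25 for Cd68 to 0.24 for Mrc1. Cd68, C1qa, C1qc and Lyz2 fell and the other 6 did not pass, and with that list as a covariate Fabp5 had a log2 fold change of -1.46 and Fabp3 of -1.35, and again no gene passed. As deviations from the group means, Fabp5 had r = 0.74 with the lipid-associated macrophage markers and Fabp3 had r = 0.28. The part of macrophages in these results was not tested.

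Fabp4, the binding protein of adipocytes, macrophages and capillary endothelium, overlapped between the diets. It stood at 154, 94.2, 133 and 112 CPM in the LFD mice and at 132, 183, 188 and 165 CPM in the HFD mice. On the log2 scale the difference was 0.43 (95% interval 0.038 to 0.81, edgeR adjusted p = 0.172). The 8 adipocyte markers ranged from a log2 fold change of -2.14 for Cfd to 3.19 for Lep, with 6 positive, 2 negative and a median of 0.56. Of them only Lipe, a lipase gene that steroid-producing cells also express, passed the test (log2 fold change 0.88), and with the adipocyte markers as a covariate Fabp4 had a fold change of 0.32. In the fit with the lipid-associated macrophage markers it had -0.00093.

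Acsl1, the synthetase linked to fatty acid oxidation and triglyceride storage in liver, heart and fat (chromosome 8, 46471037 to 46536051, plus strand), had the clearest difference of the 10 genes. Levels were 47.2, 49.7, 57.2 and 50.8 CPM in LFD mice 2, 5, 6 and 7 and 85.8, 97.0, 82.2 and 83.0 CPM in HFD mice 1 to 4. The groups were far apart, with SDs of 4.27 and 6.82 CPM around means of 51.2 and 87.0 CPM. The log2 fold change was 0.76 (SE 0.089, edgeR adjusted p = 0.0293), the 6th smallest p of the 15909 genes. It lay between 0.74 and 0.76 with the adipocyte, macrophage, endothelial or chromaffin markers as a covariate, and at 0.58 with the lipid-associated macrophage markers. It passed the test with the adipocyte (adjusted p = 0.0138) and endothelial (adjusted p = 0.0198) markers, and did not pass with the macrophage (adjusted p = 0.143), chromaffin (adjusted p = 0.287) or lipid-associated macrophage markers.

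Acsl3, a synthetase of the endoplasmic reticulum and lipid droplets, stood at 31.3 ± 3.02 CPM under LFD and 36.4 ± 8.52 CPM under HFD (SD, n = 4). The 4 HFD mice formed a wide range, with 31.0 and 27.3 CPM in mice 1 and 2 and 43.4 and 43.9 CPM in mice 3 and 4. Its log2 fold change was 0.21 (95% interval -0.16 to 0.58, edgeR adjusted p = 0.453). Acsl3 shares 3% of its 75-base words with the overlapping gene Utp14b. Acsl5, a synthetase of mitochondria and endoplasmic reticulum known best from intestine and liver, had nearly equal means, at 96.7 ± 11.3 and 96.1 ± 8.05 CPM. Its log2 fold change was -0.016 (95% interval -0.24 to 0.21), and its sign changed with the mice and covariates used.

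Acsl6, the synthetase of brain and other neural tissue, was the lowest of the 4 and the most variable. It stood at 13.7, 11.8, 13.6 and 4.52 CPM in LFD mice 2, 5, 6 and 7 and at 8.32, 3.62, 5.43 and 3.05 CPM in HFD mice 1 to 4. LFD mouse 7 lay within the HFD range. The log2 fold change was -1.11 (SE 0.42, edgeR adjusted p = 0.153, DESeq2 adjusted p = 0.0503). The chromaffin markers followed nearly the same order over the mice, with summed levels of 18928, 12282, 22062 and 6256 CPM in the LFD mice and 9771, 3020, 8333 and 3103 CPM in the HFD mice. All 10 chromaffin markers had negative fold changes, with a median of -1.28 and none past the threshold. With their level as a covariate the log2 fold change of Acsl6 was -0.040 (edgeR adjusted p = 0.981), and with the adipocyte markers it was -1.65 (edgeR adjusted p = 0.0142).

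**Figure D3:**
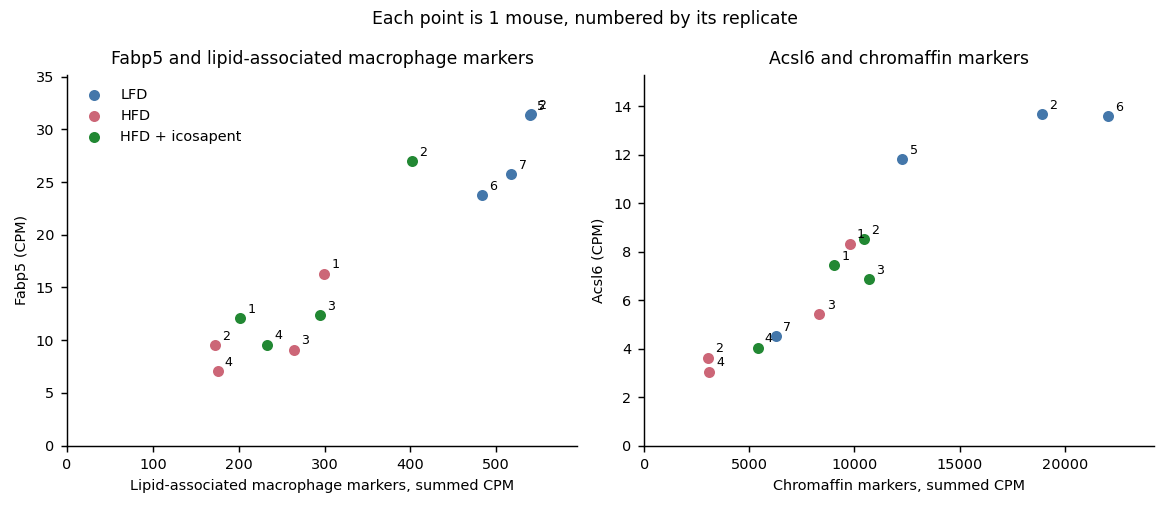
Left, Fabp5 (CPM) against the summed CPM of 8 lipid-associated macrophage markers; right, Acsl6 (CPM) against the summed CPM of 10 chromaffin markers. Each point is 1 mouse with its replicate number and group colour. Mice high in the marker sum tend to be high in the gene, but on the left all LFD mice exceed all HFD mice in both, so that trend partly restates the diets. As deviations from the group means, Fabp5 had r = 0.74 with these markers and -0.77 with the cortical cell markers. LFD mouse 7 is low in both Acsl6 and chromaffin markers, and icosapent ethyl mouse 2 is high in both Fabp5 and the macrophage markers.

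Which genes passed in HFD versus LFD changed when single mice were left out. Leaving out 1 mouse at a time kept the direction of all these genes but Acsl5, and the fold change of Acsl1 stayed between 0.70 and 0.82, of Fabp3 between -1.72 and -1.39, and of Fabp5 between -1.72 and -1.27. Without HFD mouse 1, 5 of the 10 genes passed (Acsl1, Cd36, Slc27a1, Fabp3 and Fabp5), beside 918 of all genes. Without LFD mouse 2, Acsl1 alone passed, beside 78 of all genes. Without any 1 of HFD mice 2, 3 and 4 and LFD mice 5, 6 and 7, 0 genes passed in the whole table, and the highest adjusted p by edgeR were 0.104 for Acsl1, 0.133 for Fabp3 and 0.131 for Fabp5. By DESeq2 5 of the 10 genes passed, the same ones as without HFD mouse 1, where 13.4% of all genes passed.

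**Figure D4:**
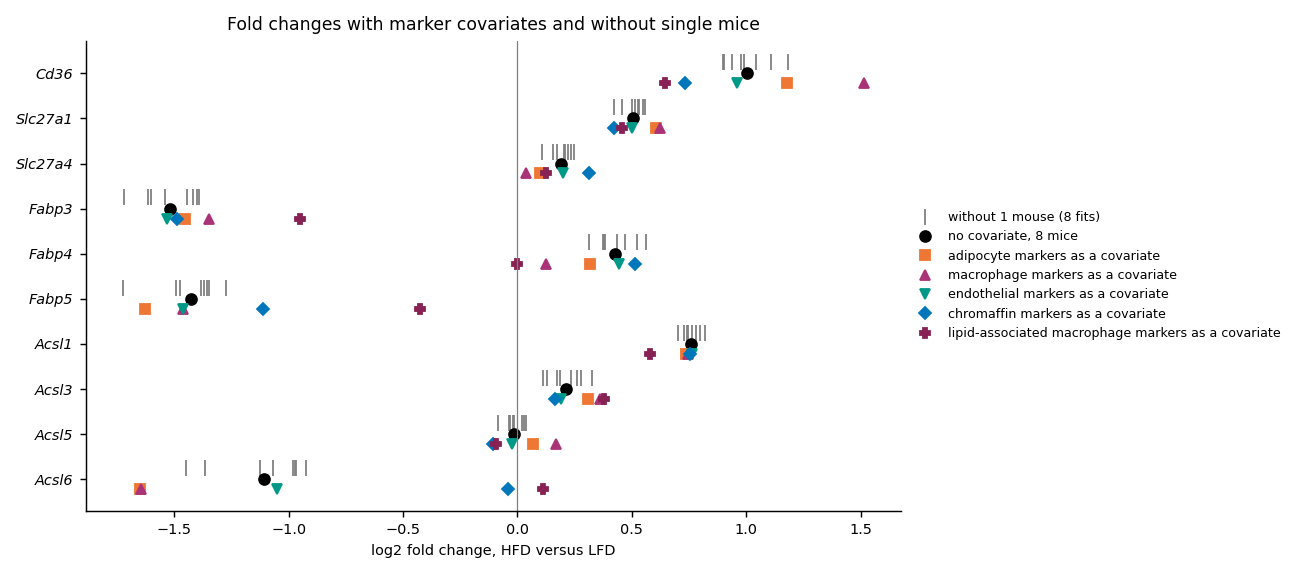
Log2 fold change of each gene in HFD versus LFD (horizontal axis): the fit of 8 mice (black circles), the 8 fits that each leave out 1 mouse (grey ticks) and fits with the mean log2 CPM of a marker list as a covariate (coloured symbols). Acsl1 hardly moved, between 0.58 and 0.82, while Acsl6 went from -1.11 to -0.040 with the chromaffin markers and Fabp5 from -1.43 to -0.42 with the lipid-associated macrophage markers. The diets did not overlap in the summed level of the lipid-associated macrophage markers, so that fit could hardly separate them from the diet.

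The other genes of the pathway were grouped in 6 lists. Of 79 further genes, 59 were tested in HFD versus LFD, 3 rose and 0 fell, where 0.974% of all genes tested rose and 0.471% fell. The 3 were listed as other known PPAR target genes, of which 14 were tested. Plin2, a lipid droplet coat protein, had a log2 fold change of 0.49 (SE 0.082, edgeR adjusted p = 0.0398). Acadl, a dehydrogenase of fatty acid oxidation, had 0.59 (SE 0.12, adjusted p = 0.0497). The list had a median log2 fold change of 0.44, against -0.015 for all genes and 0.50 for the 10 cortical cell markers. The part of cortical cells in this difference was not tested.

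No gene passed by edgeR among 10 other activation genes, 7 other binding proteins, 12 genes of uptake and release from lipoproteins, 10 acyl-CoA thioesterases, which undo the activation step, or 7 PPAR receptors and partners. The median log2 fold changes of these 5 lists lay between -0.052 and 0.17. The gene with the highest level per kilobase in each was Acsbg1, an acyl-CoA synthetase, Dbi, the acyl-CoA binding protein, Cavin1, a caveolar coat protein, Acot13, a thioesterase, and Rxra, the partner receptor of the PPARs. Their log2 fold changes were 0.54 for Acsbg1, 0.22 for Dbi, 0.21 for Cavin1, -0.14 for Acot13 and 0.11 for Rxra. Acaa2, a thiolase of fatty acid oxidation and the highest among the PPAR targets, had 0.36 (SE 0.11, edgeR adjusted p = 0.104).

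The second comparison asked whether icosapent ethyl changed these genes on the HFD, and no gene of the 15913 tested passed by edgeR (0%). At an unadjusted p under 0.05 there were 221 genes (1.39%), 1 of them among the 10, and DESeq2 called 6 genes (0.0377%) and 0 of the 10. The median log2 fold change of the 10 genes was -0.099, against 0.0040 for all genes. All 10 cortical cell markers also had negative log2 fold changes here, with a median of -0.13, and their part was not tested. Slc27a1 stood at 174, 179, 188 and 183 CPM in icosapent ethyl mice 1 to 4, all below the 195, 195, 208 and 228 CPM of the HFD mice. Its log2 fold change was -0.19 (SE 0.075, 95% interval -0.36 to -0.020, edgeR unadjusted p = 0.0325, adjusted p = 0.9997). Acsl1 stood at 80.4, 75.5, 79.9 and 77.3 CPM, also below all HFD mice, with a log2 fold change of -0.15 (95% interval -0.32 to 0.018, unadjusted p = 0.0730). These were 2 of the 10 genes without overlap, both lower, where 1.14% of all genes had no overlap, 0.484% higher and 0.66% lower.

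In Cd36 the icosapent ethyl mice, at 267, 162, 165 and 241 CPM, overlapped the HFD mice (log2 fold change -0.21, 95% interval -0.76 to 0.34). Fabp3 was at 3.53, 3.69, 4.70 and 2.99 CPM, again within reach of the HFD values, with a log2 fold change of 0.36 (95% interval -0.19 to 0.92). Fabp5 was at 12.1, 27.0, 12.4 and 9.58 CPM, with a log2 fold change of 0.54 (95% interval -0.30 to 1.38) that was 0.11 without icosapent ethyl mouse 2. That mouse also had the highest summed level of lipid-associated macrophage markers of its group, at 401 CPM, where the other 3 had 202 to 295 CPM. For Fabp4, Acsl3, Acsl5 and Slc27a4 the groups overlapped, with log2 fold changes of -0.072, -0.14, -0.083 and -0.11. Acsl6 had 0.39 (95% interval -0.40 to 1.19), and the chromaffin markers had a median of 0.58. The intervals leave room for differences in either direction in all of these genes, and the design of 4 mice a group did not resolve them.

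The third comparison set the icosapent ethyl mice against the LFD mice. It shares its samples with the other 2 comparisons, so its values are given beside theirs and are no separate evidence. No gene of 15935 passed by edgeR (0%), while 2225 (14%) had an unadjusted p under 0.05, 5 of the 10 genes among them, and DESeq2 called 477 genes (3.18%). Acsl1 had a log2 fold change of 0.61 (SE 0.083, edgeR adjusted p = 0.153), the 2nd smallest p of all genes, beside 0.76 for HFD versus LFD. Cd36 had 0.80 (SE 0.20, edgeR adjusted p = 0.204) beside 1.0, and Slc27a1 0.32 (SE 0.11, adjusted p = 0.267) beside 0.50. Fabp3 had -1.15 (SE 0.22, adjusted p = 0.184) beside -1.52. In these 4 genes the groups did not overlap, 3 higher and 1 lower, where 7.73% of all genes did not overlap, 4.04% higher and 3.69% lower. Fabp5 had -0.88 (SE 0.30, adjusted p = 0.270) beside -1.43, and icosapent ethyl mouse 2 lay among the LFD mice. DESeq2 called 3 of the 10, Acsl1, Cd36 and Fabp3.

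Levels can be compared between genes only per length of transcript, in CPM per kilobase. Over the union of annotated exons, the order of the long-chain synthetases under HFD was Acsl4 (137), Acsl5 (19.8), Acsl3 (8.36), Acsl1 (8.30) and Acsl6 (0.52). Acsl4, the isoform that prefers arachidonic acid and is abundant in steroid-producing cells, was added for this order. With the longest protein-coding transcript as the length, Acsl1 came to 22.3 under HFD and Acsl5 to 22.6, and the place of Acsl1 beside Acsl5 or Acsl3 thus depended on the gene model. Under LFD Acsl1 was lower, at 13.1 against 22.8 for Acsl5 on this scale. Acsl4 stood at 324, 459, 394 and 551 CPM in the LFD mice and at 577, 650, 855 and 891 CPM in the HFD mice. These groups did not overlap (log2 fold change 0.78, SE 0.19, edgeR adjusted p = 0.0651), and the icosapent ethyl mice, at 455 to 788 CPM, spanned both.

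Among the binding proteins Fabp4 was the highest in every group, at 27.5, 37.2 and 35.4 CPM per kilobase of exon union under LFD, HFD and HFD with icosapent ethyl. Fabp3 had 10.1, 3.52 and 4.53, and Fabp5 7.87, 2.94 and 4.28. Per kilobase of coding transcript Fabp5 had 28.4, 10.6 and 15.5, above Fabp3 in each group. Among the uptake genes, Cd36 had 33.4, 67.4 and 58.1 CPM per kilobase of exon union, Slc27a1 24.8, 35.4 and 31.0, and Slc27a4 11.1, 12.8 and 11.8. With the coding transcript Slc27a1 (51.8) was above Cd36 (35.3) under LFD, while under HFD the gap between 73.9 and 71.2 was smaller than the SD of Cd36 over mice.

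**Figure D5:**
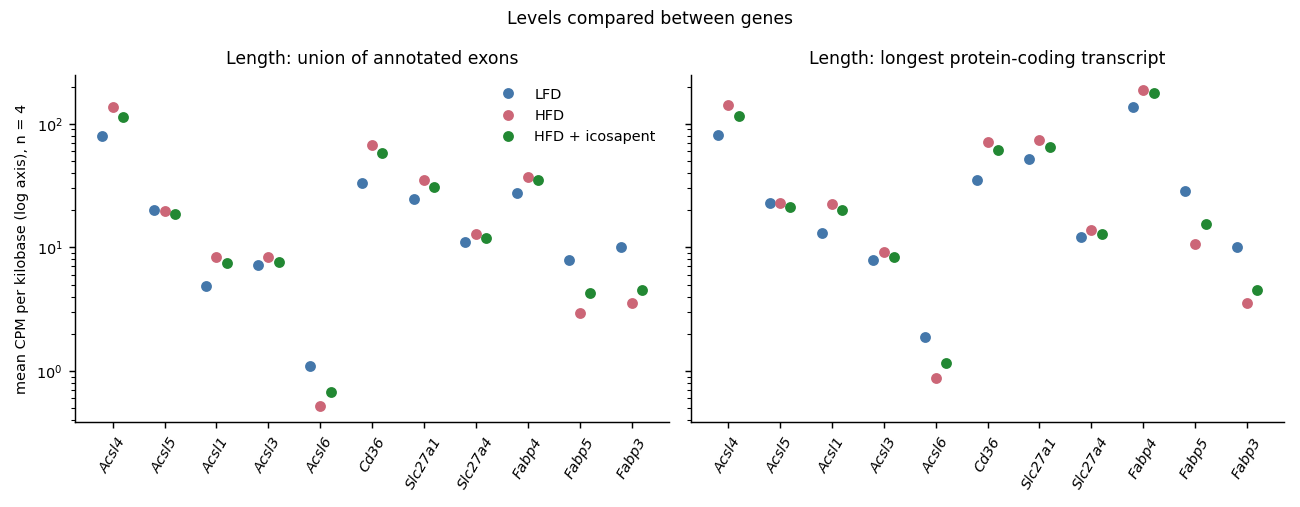
Mean level of the 10 genes and Acsl4 in CPM per kilobase on a log axis, by group (n = 4 mice each), with the length taken as the union of annotated exons (left) or the longest protein-coding transcript (right). Acsl4 and Fabp4 are high and Acsl6 is low on both scales, while Acsl1 and Fabp5 sit higher on the right, where their lengths are shorter.

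The spread between mice of a group differed between these genes. The highest mouse was 1.07 to 1.21 times the lowest of its group for Acsl1, 1.08 to 1.37 times for Slc27a1 and 1.17 to 1.32 times for Acsl5. It was 1.32 to 2.82 times for Fabp5 and 2.11 to 3.03 times for Acsl6. For the 3 genes that passed in HFD versus LFD, the genes with the most similar pattern were taken from 12683 genes by the Pearson correlation of log2 CPM deviations from the group means over the 12 mice, as a description. For Acsl1 they were Psmb9 (r = 0.89, Spearman rho = 0.83), Ryr3 (0.84, 0.80) and Mttp (0.83, 0.72). For Fabp3 they were Rasa4 (0.92, 0.94), Tamm41 (0.91, 0.92) and Znrf3 (0.88, 0.89), and for Fabp5 Sgpp2 (0.96, 0.87), Cgn (0.94, 0.94) and Pkib (0.94, 0.69). The 12 points of each pair share their libraries, and each gene named was the closest of many.

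Promoter windows from RefSeq (250 bases before to 50 after a start, GRCm38.p6) matched 8 of the 10 genes with 13 windows, and none matched Fabp4 or Fabp5. The bases before 1 RefSeq start are printed for Acsl1, which rose under HFD, and for Cd36, which had the highest ratio between the diets of the 10 genes, 5′ to 3′ on the strand of the gene. The only Cd36 window lies inside its gene model, whose outermost start is at 17888801, so that start was not scanned. In Acsl1 the capitals mark the GC box GGGCGG, and in Cd36 they mark TGACCT, the nuclear receptor core AGGTCA on the other strand.
Acsl1 (chr8:46470787-46471036, plus strand): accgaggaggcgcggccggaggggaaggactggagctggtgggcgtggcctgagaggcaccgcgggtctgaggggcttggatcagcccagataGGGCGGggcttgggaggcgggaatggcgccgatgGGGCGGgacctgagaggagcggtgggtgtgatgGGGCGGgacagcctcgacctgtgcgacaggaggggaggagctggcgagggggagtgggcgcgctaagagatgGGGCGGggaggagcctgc
Cd36 (chr5:17835897-17836146, minus strand): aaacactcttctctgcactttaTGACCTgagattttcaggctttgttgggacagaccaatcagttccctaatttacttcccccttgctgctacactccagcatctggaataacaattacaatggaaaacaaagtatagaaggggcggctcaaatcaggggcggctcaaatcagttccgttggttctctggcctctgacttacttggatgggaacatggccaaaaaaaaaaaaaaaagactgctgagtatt
The core AGGTCA was found on either strand in 2 of the 13 windows, of Cd36 at -228 and of Acsl6 at -189 and -167, and in 16.3% of all 32851 windows. The full PPAR response element, which is this core repeated with 1 free base between and so overlaps it, was in 0 of the 13 windows and in 0.0396% of all. With the base after AGG left free in each core, it was in 0 of 13 and in 0.381%. The GC box GGGCGG was in 9 of the 13 windows, of 6 genes, and in 35.7% of all windows. TGACG, a core of cAMP response elements, was in the Fabp3 window and in 20.8% of all, TCACNCCAC, a sterol response motif, was in 1 Acsl1 window and in 1.24% of all, and TATAAA was in 0 of 13 and in 13.6%. These are matches of letters in short windows and describe neither binding nor a cause.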

How the data were processed

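The deposited files hold raw counts of reads per gene, 1 file per mouse. According to the methods and the submitters' processing notes, the authors trimmed reads with cutadapt, aligned them to GRCm38 with STAR and counted them with HTSeq 0.6.1p1 on the reverse strand, using GENCODE M12 genes. Values per gene were therefore not normalized when deposited. Symbols came from GENCODE M21 for 49326 of 49585 identifiers.

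Genes were filtered with filterByExpr (minimum count 10), scaled by TMM over the mice compared and tested with the edgeR 4.0.16 quasi-likelihood test (robust), with Benjamini-Hochberg adjustment over all genes tested and a threshold of 0.05. CPM were scaled by TMM over all 12 mice (factors 0.883 to 1.14). DESeq2 1.42.0, other filters and scalings, marker levels as covariates and single mice left out were alternatives. A marker covariate was the mean log2 CPM of its list in each mouse, whereas the list levels printed here are summed CPM. The test was tried on simulated counts first. Among 66 pairs of libraries, 0 held identical counts.

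The genes and lists were chosen with earlier results of these data known. Named were the 10 genes, Acsl4, every list gene past the threshold in HFD versus LFD, the highest gene per kilobase of each list, and the 3 genes most like each of the 10 that passed. The values of 1 list gene that passed are not reported here. Markers named beside a result were chosen after their values were seen. HFD and icosapent ethyl mice share the numbers 1 to 4. Same-numbered mice had correlated deviations over genes (r = 0.25, 0.12, 0.35 and 0.65), all over 0.1, although some other pairs had as much (up to 0.62), and no source says what a number marks. Every mean rests on 4 mice a group, and the lowest of the 10 genes, Fabp3, on 96 to 444 reads per mouse.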

Additional observations from a re-analysis of the deposited data

Results flagged for a closer look

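Of 60 groups of 4 mice (20 named genes in 3 groups), 1 held a mouse far from the others, where chance alone flags about 1 in 20, or 3 groups. It was Fabp5 in icosapent ethyl mouse 2, at 27.0 CPM, with the next mouse at 12.4 and the lowest at 9.58 CPM, a gap of 0.84 of the whole range. The same mouse had the highest lipid-associated macrophage marker sum of its group, and the part of these cells in the value was not tested.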

How the results depend on the processing

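In HFD versus LFD, 230 genes and 3 of the 10 passed. The counts were 2049 and 5 by the DESeq2 Wald test, 556 and 5 with all 12 mice in 1 fit, 84 and 0 with library totals without scaling, 2557 and 6 with adipocyte markers as a covariate, 1045 and 5 with endothelial markers, and 0 and 0 with macrophage, chromaffin or (added after seeing the data) lipid-associated macrophage markers. Without 1 mouse they ran from 0 to 918 and from 0 to 5. Other filters, DESeq2 size factors and non-robust estimation gave 179 to 271 genes and 3 or 4 of the 10. Library totals moved the median of all genes to -0.11. In icosapent ethyl versus HFD, DESeq2 called 6 genes and 0 of the 10, and every other setting 0 and 0, the replicate block included, which pairs the mice by number and changed no call. In icosapent ethyl versus LFD, DESeq2 called 477 genes and 3 of the 10, the fit of 12 mice 2 and 1 (Acsl1), the adipocyte covariate 1 and 0, and single mice left out 0 to 1 genes and 0 of the 10, with 0 and 0 under the rest.

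No value that passed in its own comparison changed direction. Values that did, all log2 fold changes that did not pass in the comparison named, were these. In HFD versus LFD, Acsl5 became 0.069 with adipocyte and 0.17 with macrophage markers, Acsl6 0.11 and Fabp4 -0.00093 with lipid-associated macrophage markers. In icosapent ethyl versus HFD with endothelial markers, Acsl5 became 0.021, Cd36 0.081, Fabp4 0.14 and Fabp5 -0.0027, and with chromaffin markers Acsl6 became -0.055 and Fabp4 0.013. In icosapent ethyl versus LFD, Acsl5 became 0.023 with adipocyte and 0.079 with macrophage markers, Slc27a4 -0.055 with adipocyte and -0.015 with endothelial markers, Fabp4 -0.099 with macrophage markers and Acsl3 -0.055 with chromaffin markers. Without 1 mouse, Acsl5 ranged from -0.083 to 0.038 in HFD versus LFD, Fabp4 from -0.21 to 0.060 in icosapent ethyl versus HFD and Acsl3 from -0.038 to 0.19 in icosapent ethyl versus LFD. The causes of these changes were not tested.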
